A study of Mus musculus with 26 samples.

Results

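Mouse liver tumours started in hepatocytes around the central vein were compared with tumours started in hepatocytes around the portal vein, among tumours with little RNA of the muscle gene Ttn. Both groups carried the same tumour alleles, a Ctnnb1(ex3)fl/+ allele and Arid2fl/fl, on a mixed C57BL/6J and Swiss Webster background. They differed in the driver of the tamoxifen-dependent recombinase: Cyp1a2-CreERT2 in the group called Cyp1a2_CA and Gls2-CreERT2 in the group called Gls2_CA. Tamoxifen was given on postnatal day 28 and the mice were followed for 6 to 12 months, and each library was made from a piece of frozen tumour. Members were selected on their Ttn level: of 19 libraries of the 2 genotypes, the 16 with at most 1000 CPM (a gene's counts scaled to the total of its column) were kept, of 26 libraries in the series. Kept libraries had 2.15 to 78.4 CPM of Ttn, with CAB52 nearest to the limit, and the 3 left out (CAB44, CAB225 and GAB235) had 22240 to 31446. The single tumour with the Ctnnb1 allele alone under Cyp1a2-CreERT2 (11293 CPM of Ttn) was not used. Titles give animal numbers, and libraries with the same number were summed, which left 7 Cyp1a2_CA animals (8 libraries, 2 of them from CAB28) and 4 Gls2_CA animals (8 libraries, 3 each from GAB242 and GAB294). Liver of 6 wild-type C57BL/6J mice given Cre by adeno-associated virus and kept for up to 12 months (WT) is quoted for its levels only, since strain, virus, age and depth differ.

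Hepatocytes along the liver lobule divide labour. Those near the portal vein make urea and glucose and break down glutamine with glutaminase 2 (Gls2), and those near the central vein make glutamine with glutamine synthetase (Glul) and metabolise drugs with enzymes such as Cyp1a2, a programme kept on by Wnt and beta-catenin. Loss of exon 3 of Ctnnb1 removes the sites that mark beta-catenin for degradation, and Arid2 encodes a DNA-binding part of PBAF, which remodels chromatin. A promoter-driven CreERT2 reports the zone in which recombination began, not the zone a tumour resembles at harvest, and the question of the comparison is whether the latter still depends on the former.

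Total counts per library lay between 36992043 and 47588109 and did not separate the groups (exact permutation test over 7 against 4 animals, two-sided p = 0.5). The mitochondrial share of counts was 3.30 ± 0.57% (SD, n = 7) in Cyp1a2_CA and 4.81 ± 1.14% (SD, n = 4) in Gls2_CA animals (exact permutation test, two-sided p = 0.0121, 0.0363 after Benjamini-Hochberg adjustment over 3 measures). Without GAB229 the difference went from -1.51 to -1.01 percentage points (exact permutation p = 0.05), and over single libraries it was -1.12 (exact permutation p = 0.0758). The ranges overlapped, and the 3 libraries of GAB242 alone ran from 2.11 to 6.73%. The median of 82 ribosomal protein genes was 51.2 ± 7.2 CPM against 43.7 ± 7.9 CPM (SD, n = 7 and 4, exact permutation p = 0.142). WT libraries had fewer counts, 13486530 to 16975288. Their mitochondrial share was 8.90 to 11.1% and their ribosomal protein median 96.1 to 113 CPM. These differences limit every comparison of CPM with WT, above all for genes near 0 CPM. Hepatocyte markers made up 8170 to 34803 CPM in Cyp1a2_CA and 11197 to 15178 CPM in Gls2_CA animals, against 72264 to 97944 CPM in WT. Muscle markers summed to at most 2.65 CPM in any member animal, with Ckm, Myod1 and Myh4 at 0. With bulk tissue, fewer cells of a type and less RNA per cell cannot be told apart.

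The genes that define the model gave similar ranges in both groups. Ctnnb1 had 79.4, 112 and 146 CPM (lowest, median and highest) in Cyp1a2_CA and 71.1, 94.5, 70.6 and 91.4 CPM in Gls2_CA animals (GAB18, GAB229, GAB242 and GAB294, the order used throughout), against 150 to 182 CPM in WT. Its log2 fold change, Cyp1a2_CA minus Gls2_CA as in all fold changes here, was 0.45 with a 95% interval of 0.01 to 0.88 (edgeR adjusted p = 0.815). Arid2 had 24.3 to 34.5 CPM and 23.3 to 38.65 CPM, and every member animal lay below the 62.7 to 73.1 CPM of WT. Axin2, a feedback inhibitor of the pathway and a standard readout of beta-catenin, had 90.0 to 428 CPM in Cyp1a2_CA and 90.7 to 211 CPM in Gls2_CA, all above the 7.59 to 13.5 CPM of WT. Arid2 and Axin2 overlapped fully between the 2 origins.

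The genes whose promoters drove Cre were not higher in the tumours they started. Cyp1a2 (chromosome 9) had 130, 232 and 274 CPM in Cyp1a2_CA animals and 175, 654, 365 and 473 CPM in Gls2_CA animals, so 3 of the 4 periportal-origin animals lay above all 7 of pericentral origin. That difference was -0.90 on the log2 scale (95% interval -1.50 to -0.29) and did not pass (edgeR p = 0.00713, adjusted p = 0.752). Both groups stood below WT, at 812 to 1019 CPM. Tumours of one animal spread as widely as the groups: the 3 of GAB294 had 984, 177 and 295 CPM, and the 3 of GAB242 had 113, 472 and 500 CPM. Gls2 (chromosome 10) had 2.30, 17.1 and 54.1 CPM in Cyp1a2_CA and 1.85, 7.32, 30.6 and 17.0 CPM in Gls2_CA animals, against 191 to 243 CPM in WT. Its level was low and overlapping in both groups (log2 fold change 0.45, 95% interval -1.48 to 2.39, edgeR adjusted p = 0.94). Glul had 327, 2253 and 2445 CPM in Cyp1a2_CA and 2446, 1709, 1959 and 3170 CPM in Gls2_CA animals, and 10 of the 11 animals lay above the 1040 to 1165 CPM of WT. The exception was CAB52, at 327 CPM.

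Across the transcriptome no gene separated the 2 origins at the threshold in edgeR. Of 16898 genes tested, 0 (0%) passed an adjusted p of 0.05 in edgeR's quasi-likelihood test, 1018 had an unadjusted p under 0.05, and DESeq2 passed 62 and limma-voom 2 on the same counts. The smallest adjusted p was 0.282. At an unadjusted p under 0.05, 460 genes (2.72%) were higher and 558 (3.3%) lower in Cyp1a2_CA. Animals of the 2 groups did not overlap at 73 genes higher (0.432%) and 102 genes lower (0.604%) in Cyp1a2_CA. Single libraries did not overlap at 13 genes higher and 13 lower of the 16898. Libraries of 1 animal are not separate replicates, so a lack of overlap of libraries is a description only. With a median standard error of 0.29 on the log2 scale, the 95% interval of a typical gene spans a 1.54-fold change each way before any adjustment, and genes with a smaller spread had narrower intervals. The median log2 fold change of all tested genes was 0.02, and 52.7% of them lay above 0. Every gene named below was taken from these same values, so its order among all genes is a description.

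**Figure D1:**
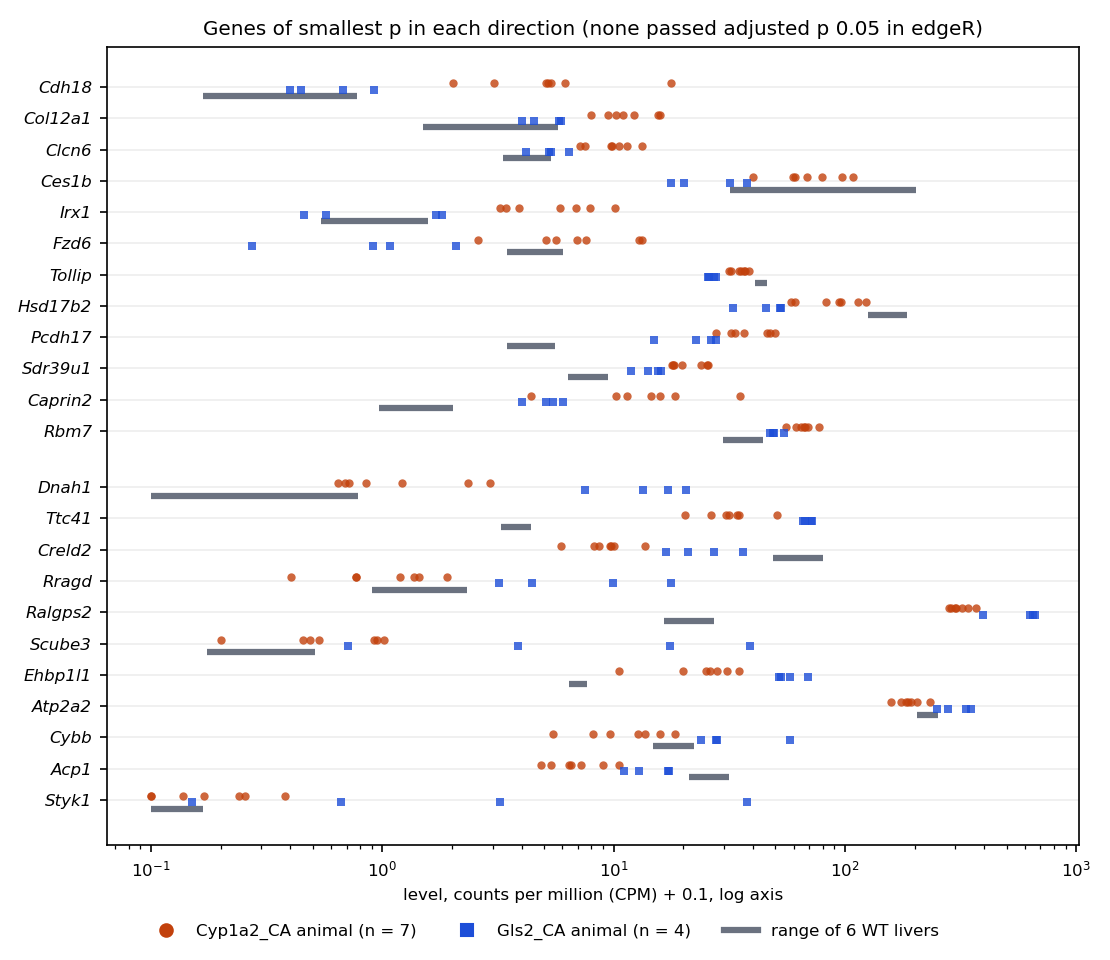
Level of the genes with the smallest p in each direction (12 higher, 11 lower in Cyp1a2_CA) (CPM + 0.1, log axis): circles are the 7 Cyp1a2_CA animals, squares the 4 Gls2_CA animals and grey bars the range of 6 WT livers. Animals did not overlap at 20 of the 23 genes and at 175 of all 16898 tested. The 23 were chosen by p between these same animals, and none passed an adjusted p of 0.05 in edgeR.

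The 12 genes with the smallest p among those higher in Cyp1a2_CA held cell-surface and developmental genes beside liver enzymes. Cdh18, a type II cadherin, had 1.91, 5.09 and 17.7 CPM in Cyp1a2_CA and 0.82, 0.34, 0.57 and 0.30 CPM in Gls2_CA animals. No animal and no single library of the groups overlapped at Cdh18 (log2 fold change 3.65, 95% interval 2.24 to 5.05, edgeR adjusted p = 0.319), and WT had 0.07 to 0.68 CPM. Fzd6, a Wnt receptor of the Frizzled family, had 2.50, 6.87 and 13.2 CPM against 0.98, 0.17, 0.81 and 1.97 CPM, with WT between them at 3.38 to 5.95 CPM. Here all 4 Gls2_CA animals were below every WT liver, and 6 of the 7 Cyp1a2_CA animals were within or above the WT range. Irx1, a homeobox factor, had 3.13, 5.76 and 10.05 CPM against 0.36, 0.47, 1.61 and 1.72 CPM, and 0.44 to 1.47 CPM in WT. Col12a1, a collagen, had 7.91, 10.9 and 15.8 CPM against 4.42, 3.90, 5.84 and 5.71 CPM.

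Liver enzymes of the same 12 were Ces1b, a carboxylesterase, and Hsd17b2, which inactivates oestradiol and testosterone. Ces1b had 40.0, 68.5 and 109 CPM in Cyp1a2_CA and 37.6, 17.6, 20.1 and 31.6 CPM in Gls2_CA animals (log2 fold change 1.48, edgeR adjusted p = 0.532). Its libraries did not overlap, though Ces1 genes are near-identical copies whose reads the counting may have split. Hsd17b2 had 58.6, 94.1 and 123 CPM against 53.1, 32.9, 45.3 and 52.1 CPM, all below the 126 to 185 CPM of WT. The remainder of the 12 were Clcn6, Tollip, Pcdh17, Sdr39u1, Caprin2 and Rbm7, with log2 fold changes of 0.41 (Rbm7) to 1.62 (Caprin2). Caprin2 alone among these 12 overlapped, through CAB228 at 4.28 CPM.

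The genes higher in Gls2_CA included a motor protein gene. Dnah1, an axonemal dynein heavy chain, had 0.55, 0.75 and 2.82 CPM in Cyp1a2_CA and 13.3, 20.5, 17.1 and 7.41 CPM in Gls2_CA animals (log2 fold change -3.48, 95% interval -4.64 to -2.33, edgeR adjusted p = 0.282). All 8 Gls2_CA libraries lay above all 8 Cyp1a2_CA libraries, and WT had at most 0.68 CPM. Tumours of 1 animal differed in Dnah1: the 3 libraries of GAB242 had 6.14, 7.21 and 36.4 CPM, and the 3 of GAB294 had 3.38, 4.34 and 15.03 CPM.

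Ralgps2, Ttc41, Atp2a2, Creld2, Cybb and Rragd were also higher in Gls2_CA, and ranged from 3.11 CPM (Rragd) to 663 CPM (Ralgps2) in animals of that group. Ralgps2, an exchange factor for Ral GTPases, had 281, 301 and 370 CPM in Cyp1a2_CA and 396, 648, 663 and 632 CPM in Gls2_CA animals. The groups did not overlap, and both stood far above the 16.4 to 27.0 CPM of WT. Ttc41 had 20.2, 31.5 and 50.6 CPM against 71.4, 65.9, 72.0 and 66.8 CPM, and 3.14 to 4.30 CPM in WT. Atp2a2, the calcium pump of the endoplasmic reticulum, had 159, 188 and 233 CPM against 333, 350, 278 and 251 CPM. Creld2, a gene of the endoplasmic reticulum stress response, had 5.82, 9.53 and 13.5 CPM against 20.9, 36.1, 16.7 and 26.9 CPM, and all 11 animals were below the 48.8 to 80.6 CPM of WT. Cybb, the catalytic subunit of the phagocyte oxidase, had 5.35, 12.7 and 18.3 CPM against 27.9, 57.6, 27.6 and 23.7 CPM. Rragd, a Rag GTPase that signals amino acids to mTORC1, had 0.30, 1.09 and 1.81 CPM against 3.11, 17.5, 9.86 and 4.32 CPM.

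Scube3 and Styk1 had large fold changes that rested on part of the Gls2_CA animals. Scube3 had at most 0.92 CPM in Cyp1a2_CA and 17.5, 38.9, 3.76 and 0.61 CPM in Gls2_CA, and Styk1 had at most 0.28 CPM against 0.565, 37.6, 3.11 and 0.05 CPM. In both, GAB294 fell within the Cyp1a2_CA range. Of the 23 plotted genes of both directions, all except Pcdh17 and Sdr39u1 passed in DESeq2, which passed 62 of all 16898 genes. The 23 were chosen by edgeR's p on the same counts, so their passing in DESeq2 is not separate support. Ehbp1l1 and Acp1 had log2 fold changes of -1.21 and -1.04. Among the 3 libraries left out for their Ttn, CAB44 and CAB225 both fell on the same side of GAB235 as in the kept tumours at 8 of the 23 genes. With 1 Gls2_CA animal this has no test. The same count over all genes was not made, so 8 of 23 cannot be read as repeating the differences or not.

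Zonal genes did not sort the tumours by the zone of origin. Of 28 tested pericentral genes, 0 passed in edgeR and 1, Cyp2a5, in DESeq2, 12 had a log2 fold change above 0 and the median was -0.10. Of 24 periportal genes, 0 passed in edgeR or DESeq2, 10 lay above 0 and the median was -0.13. In both lists the count at an unadjusted p under 0.05 was 0 higher in Cyp1a2_CA (2.72% of all genes), with 3 pericentral and 1 periportal gene lower (3.3% of all genes). The 3 pericentral genes were Cyp1a2 (above), Cyp2a5 and Por, all with higher means in tumours of periportal origin. Cyp2a5, a coumarin hydroxylase with a close paralog in Cyp2a4, had 77.0, 249 and 441 CPM in Cyp1a2_CA and 365, 1717, 1101 and 394 CPM in Gls2_CA animals (log2 fold change -1.82, edgeR adjusted p = 0.683, DESeq2 adjusted p = 0.0422). Por, the reductase that feeds electrons to cytochromes P450, had 153, 212 and 380 CPM against 396, 287, 476 and 609 CPM (log2 fold change -0.84, edgeR adjusted p = 0.759). Cyp2e1, an ethanol-metabolising enzyme of the pericentral zone, had 610 to 3085 CPM against 901 to 2200 CPM and ran the other way, at 0.34.

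**Figure D2:**
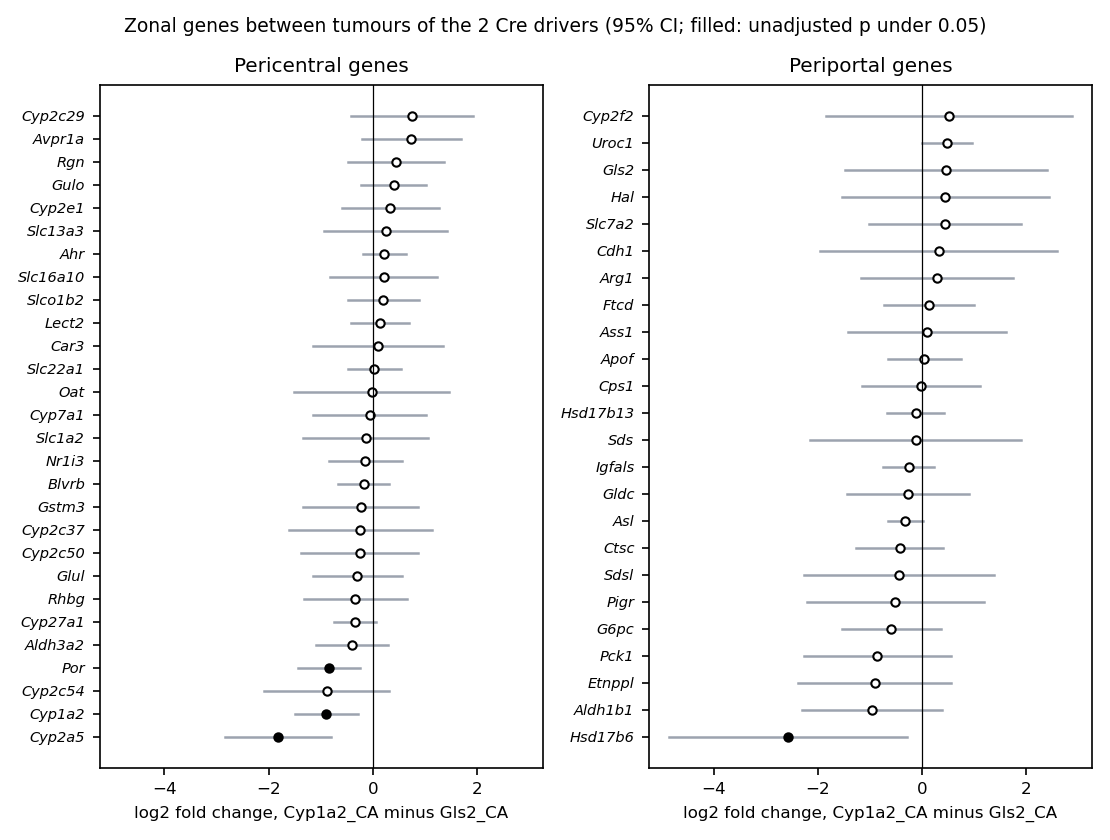
Log2 fold change (Cyp1a2_CA minus Gls2_CA) of 28 pericentral and 24 periportal genes with 95% intervals from edgeR, and filled points where the unadjusted p was under 0.05. Intervals of 25 pericentral and 23 periportal genes include 0, and no gene passed after adjustment in edgeR.

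The periportal gene below 0.05 before adjustment was Hsd17b6, a retinol and androgen dehydrogenase. It had 0.23, 16.7 and 78.0 CPM in Cyp1a2_CA and 10.6, 440, 116 and 65.6 CPM in Gls2_CA animals, so GAB229 stood apart. Asl, a urea cycle enzyme, had 130 to 189 CPM against 168 to 288 CPM. Uroc1, which degrades histidine, had 66.6 to 173 CPM against 63.5 to 117 CPM. As sums, periportal genes had 1664 to 4938 CPM in Cyp1a2_CA and 1451 to 3850 CPM in Gls2_CA animals, against 13314 to 16763 CPM in WT. Pericentral genes summed to 5685 to 18401 CPM and 12901 to 17648 CPM, against 16053 to 18972 CPM in WT, with CAB52 the lowest. The sums of the 2 origins overlapped in both lists, and every periportal sum lay below WT. Urea cycle genes (8 tested, 0 passed, median 0.05) included Otc, which had 55.7, 101 and 136 CPM against 46.5, 66.5, 69.6 and 56.3 CPM (log2 fold change 0.77, edgeR adjusted p = 0.76).

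The listed Wnt/beta-catenin targets had higher means in Cyp1a2_CA without a passing gene. All 16 tested targets had a log2 fold change above 0, against 52.7% of all genes, with a median of 0.39, and 2 had an unadjusted p under 0.05 (2.72% of all genes did in this direction). Tnfrsf19, a receptor induced by beta-catenin, had 7.79, 17.9 and 31.7 CPM in Cyp1a2_CA and 9.48, 7.62, 8.52 and 16.0 CPM in Gls2_CA animals. Lgr5, the R-spondin receptor, had 8.70, 20.1 and 25.3 CPM against 10.8, 5.20, 12.8 and 18.01 CPM. Wif1, a secreted Wnt inhibitor, had 0.13 to 4.07 CPM against 0 to 0.50 CPM. Targets share their regulator and are not independent of each other, and with the high-Ttn tumours included the fold changes of Axin2 and Wif1 were -0.15 and -0.56. The list does not hold the pericentral genes that beta-catenin keeps on in liver, such as Glul (-0.30) and Cyp1a2 (-0.90). Of the 28 pericentral genes, 16 lay below 0, so the 16 targets do not stand for all beta-catenin output.

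Proliferation genes gave the highest median of the pathway lists that hold no sex-linked or sex-biased genes. Of 20 tested, 0 passed, 17 lay above 0 and the median was 0.59. Ccnb2, a mitotic cyclin, had 1.24, 3.61 and 5.71 CPM in Cyp1a2_CA and 1.82, 1.85, 1.46 and 0.89 CPM in Gls2_CA animals (log2 fold change 1.28, edgeR adjusted p = 0.759). Ccna2, the cyclin of S phase and early mitosis, had 7.24, 19.03 and 23.4 CPM against 15.0, 9.54, 14.8 and 4.96 CPM. GAB294 was the lowest animal for both, and CAB26 the lowest of Cyp1a2_CA. The summed list ran from 136 to 948 CPM in Cyp1a2_CA and from 119 to 480 CPM in Gls2_CA, against 65.9 to 76.5 CPM in WT. Genes of the p53 pathway (14 tested, 0 passed, 13 above 0, median 0.36) had no member with an unadjusted p under 0.05. Their widest differences, Phlda3 with 0.95 to 18.6 CPM against 1.09 to 3.18 CPM and Eda2r with 1.24 to 41.9 CPM against 1.00 to 9.32 CPM, came with wide spread inside Cyp1a2_CA.

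**Figure D3:**
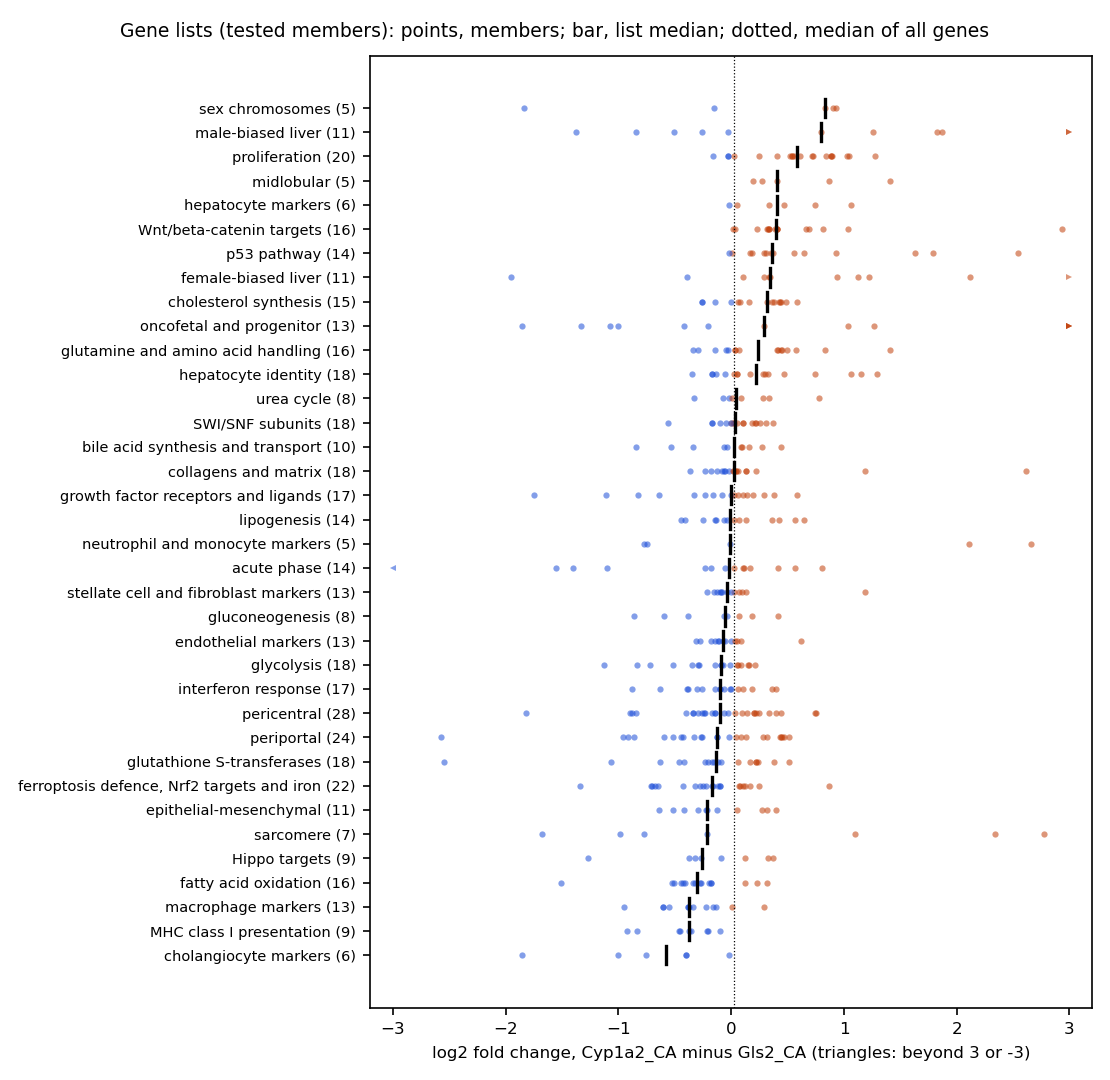
Log2 fold changes (Cyp1a2_CA minus Gls2_CA) of the tested members of each list with at least 5 of them, the number in brackets: points are genes, coloured by sign, bars are list medians and the dotted line is the median of all tested genes, 0.02. No point passed an adjusted p of 0.05 in edgeR, and list medians ran from -0.58 (cholangiocyte markers) to 0.83 (sex chromosome genes).

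No metabolic list had a gene that passed in edgeR, and 1 gene of fatty acid oxidation, Cyp4a14, passed in DESeq2. In edgeR, Cyp4a14 had a log2 fold change of only -0.28 (edgeR adjusted p = 0.983), so the 2 tools disagreed on it. Lipogenesis (14 tested) had a median of -0.01, cholesterol synthesis (15) of 0.32, gluconeogenesis (8) of -0.05, glycolysis (18) of -0.09 and bile acid genes (10) of 0.03. Fatty acid oxidation had 13 of 16 genes below 0 and a median of -0.30. Acadl, which starts the oxidation of long-chain fatty acids in mitochondria, had 65.6, 74.4 and 107 CPM in Cyp1a2_CA and 143, 89.2, 98.4 and 107 CPM in Gls2_CA animals. Eno1, a glycolytic enolase, had 89.8, 119 and 197 CPM against 215, 208, 178 and 125 CPM (log2 fold change -0.51, edgeR adjusted p = 0.815). Glutamine and amino acid handling (16 tested, 0 passed, median 0.24) included Slc38a3, the glutamine transporter of the pericentral zone, with 763, 904 and 1668 CPM against 551, 579, 748 and 1079 CPM.

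Genes of antioxidant defence and iron handling had 15 of 22 members below 0, with a median of -0.17 and 0 passing. Gpx4, the peroxidase that guards membranes against lipid peroxidation and ferroptosis, had 66.5, 121 and 172 CPM in Cyp1a2_CA and 224, 201, 211 and 123 CPM in Gls2_CA animals. WT had 58.7 to 74.5 CPM, so 10 of the 11 animals, all but CAB52, lay above every WT liver. The Gpx4 difference was -0.71 on the log2 scale (95% interval -1.19 to -0.24, edgeR adjusted p = 0.752). Gch1, the first enzyme of tetrahydrobiopterin synthesis, had 11.8, 18.4 and 26.05 CPM against 25.1, 35.2, 29.4 and 34.7 CPM, overlapping only through CAB228 and GAB18. Gclm, the regulatory subunit of the enzyme that limits glutathione synthesis, had 71.1, 91.8 and 143 CPM against 129.7, 230.7, 145.5 and 124.8 CPM. The mitochondrial share of counts was higher in the same group, and its part in these differences was not tested.

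Immune and inflammatory genes described here mostly had higher means in Gls2_CA, and 0 passed in edgeR. All 9 MHC class I presentation genes lay below 0 (47.3% of all genes did), with a median of -0.37 and 0 passing. H2-K1, a classical class I heavy chain, had 1159, 1592 and 2475 CPM in Cyp1a2_CA and 2142, 2763, 1976 and 2563 CPM in Gls2_CA animals. Psmb8, a subunit of the immunoproteasome, had 2.60, 5.64 and 12.2 CPM against 14.05, 15.7, 9.54 and 9.38 CPM. The interferon response list (17 tested) had 12 members below 0, a median of -0.10 and 1, Irf1, whose animals did not overlap. Over all genes, 0.604% were lower in Cyp1a2_CA without overlap of animals. Irf1, an interferon-induced transcription factor, had 13.4, 21.6 and 25.03 CPM against 26.7, 27.6, 26.2 and 43.1 CPM, which did not overlap (log2 fold change -0.63, edgeR adjusted p = 0.748). The acute phase list (14 tested) had 7 members above and 7 below 0, with a median of -0.02. Its 1 member with non-overlapping animals was Orm2, beside the same 0.604% of all genes. Orm2, an acute phase protein with close paralogs, had 0.28, 2.65 and 12.0 CPM against 49.2, 56.2, 26.2 and 37.9 CPM, with no overlap of animals or of libraries (log2 fold change -3.34, edgeR adjusted p = 0.645, DESeq2 adjusted p = 0.00743). WT had 5.78 to 61.5 CPM of Orm2, so 5 of the 7 Cyp1a2_CA animals stood below every WT liver and all 4 Gls2_CA animals within the WT range. Csf3r, the receptor for granulocyte colony-stimulating factor, had 6.31, 10.8 and 17.2 CPM against 19.03, 17.3, 23.01 and 20.03 CPM. It was picked by p from the neutrophil and monocyte markers, whose tested members were split. Of these, 3 lay below 0 and 2 above, with a highest log2 fold change of 2.66.

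Marker lists of other cell types were measured beside these genes. Macrophage markers (13 of 13 tested) had 11 members below 0, a median of -0.37 and sums of 130 to 307 CPM in Cyp1a2_CA and 191 to 363 CPM in Gls2_CA, against 400 to 487 CPM in WT. Of neutrophil and monocyte markers 5 of 8 were tested, with a median of -0.01 and sums of 11.0 to 22.8 CPM against 22.8 to 26.8 CPM. Cholangiocyte markers (6 of 10 tested) all lay below 0, with a median of -0.58 and sums of 51.7 to 213 CPM against 115 to 250 CPM. Their part in the immune differences was not tested. Endothelial markers (13 tested) had a median of -0.07 and stellate cell and fibroblast markers (13 tested) of -0.03. Summed T and NK cell markers reached at most 4.03 CPM, B and plasma cell markers 3.28 CPM and erythroid markers 82.8 CPM in any member animal.

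Sex-linked and sex-biased genes varied between animals within each group. Y-linked genes summed to 266 to 670 CPM in Cyp1a2_CA and to 124.7, 234.8, 157.9 and 481.2 CPM in Gls2_CA animals, so 3 of the 4 Gls2_CA animals lay below every Cyp1a2_CA animal. Every animal of both groups thus had Y-linked RNA. With Xist and Tsix added, the sums were 267 to 670 CPM in Cyp1a2_CA and 125 to 483 CPM in Gls2_CA. The same sums in WT were 193 to 227 CPM. Ddx3y, one of them, had 74.2, 130 and 183 CPM against 33.8, 61.7, 36.4 and 125 CPM. Serpina1e, a male-biased antitrypsin of the liver from a family of near-identical genes, had 11.9, 189 and 1149 CPM against 17.5, 16.4, 12.3 and 22.2 CPM, and 8124 to 16891 CPM in WT. Serpina1e passed in DESeq2 (adjusted p = 0.00825) and not in edgeR. The list of male-biased liver genes had 11 tested members, 6 above and 5 below 0, with log2 fold changes from -1.37 to 4.53 and a median of 0.80. Female-biased liver genes had 11 tested members, 9 above and 2 below 0, with a median of 0.34.

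Several genes were high in 1 or 2 animals alone. Igf2, the fetal insulin-like growth factor, had 33967 CPM in CAB52 and 4536 CPM in CAB145, and at most 72.3 CPM in the other 9 animals. Its log2 fold change of 8.28 became -0.05 without CAB52 and CAB145, an alternative chosen after their values were seen. Afp, the fetal serum protein of liver, had 1196 CPM in CAB52 and at most 14.1 CPM elsewhere. Igf1r, the receptor for insulin-like growth factors, had 196 CPM in GAB229 and 11.3 to 23.6 CPM in the other 10 animals, so its difference of -1.75 became 0.11 without GAB229. Fgfr1 had 66.2 CPM in GAB242 and at most 21.4 CPM elsewhere, and Sox9, a progenitor and bile duct factor, had 24.4 CPM in GAB229 and at most 4.79 CPM elsewhere. In edgeR none of these genes passed between the groups, while Igf2 passed in DESeq2 (adjusted p = 0.00909).

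**Figure D4:**
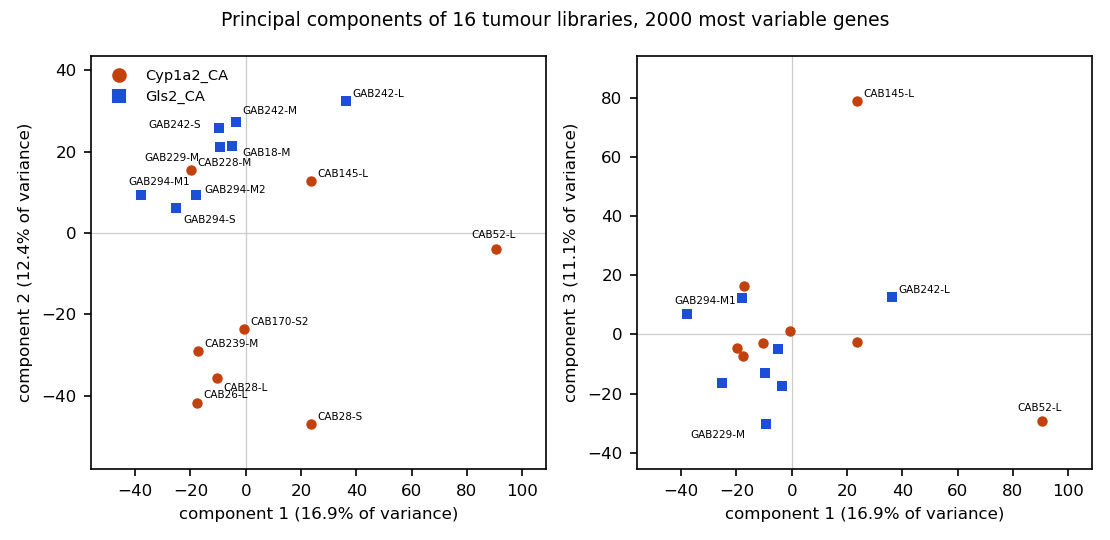
Principal components of log2 CPM of the 2000 most variable genes in 16 tumour libraries (circles Cyp1a2_CA, squares Gls2_CA), with the share of variance on each axis. CAB52 and CAB145 stand apart on axes 1 and 3, and on axis 2 the 8 Gls2_CA libraries lie between 6.11 and 32.5 and the 8 Cyp1a2_CA libraries between -46.9 and 15.4.

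The leading axes of variation followed single tumours first. The first principal component held 16.9% of the variance and set CAB52 (90.6) and then GAB242-L (36.3) apart, and component 3 (11.1%) set CAB145 apart (78.9). On component 2 (12.4%) all 8 Gls2_CA libraries had positive scores and 6 of the 8 Cyp1a2_CA libraries negative ones, the exceptions being CAB145 (12.7) and CAB228 (15.4). Over all tested genes the median SD of log2(CPM + 1) was 0.16 between the tumours of CAB28, 0.27 between those of GAB242 and 0.26 between those of GAB294. Between animals, with libraries of 1 animal number summed, it was 0.34 in Cyp1a2_CA and 0.25 in Gls2_CA. Summing averages over the tumours of CAB28, GAB242 and GAB294, so these SDs are not directly comparable with those between single tumours.

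Genes of one chromosome tended to be high or low together in single tumours, a pattern examined after it was seen in the data. For 7719 genes with a mean of at least 10 CPM, each library's log2(CPM + 1) was centred on the median of the 16 libraries and then on the library's own median, and the median was taken for each of chromosomes 1 to 19 and X. Of 320 such medians, 29 lay beyond 0.3 in size, 14 of 160 in Cyp1a2_CA and 15 of 160 in Gls2_CA, spread over 10 of the 16 libraries. GAB18 had a median of -0.68 on chromosome 14, where 95.7% of 278 genes lay below 0, and 0.42 on chromosome 15. GAB229 had -0.65 on chromosome 8 and -0.45 on chromosome 6. CAB52 had -0.71 on chromosome 3 and -0.56 on chromosome 10, CAB145 had -0.64 on chromosome 11 and 0.44 on chromosome 14, and CAB228 had -0.54 on chromosome 10.

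**Figure D5:**
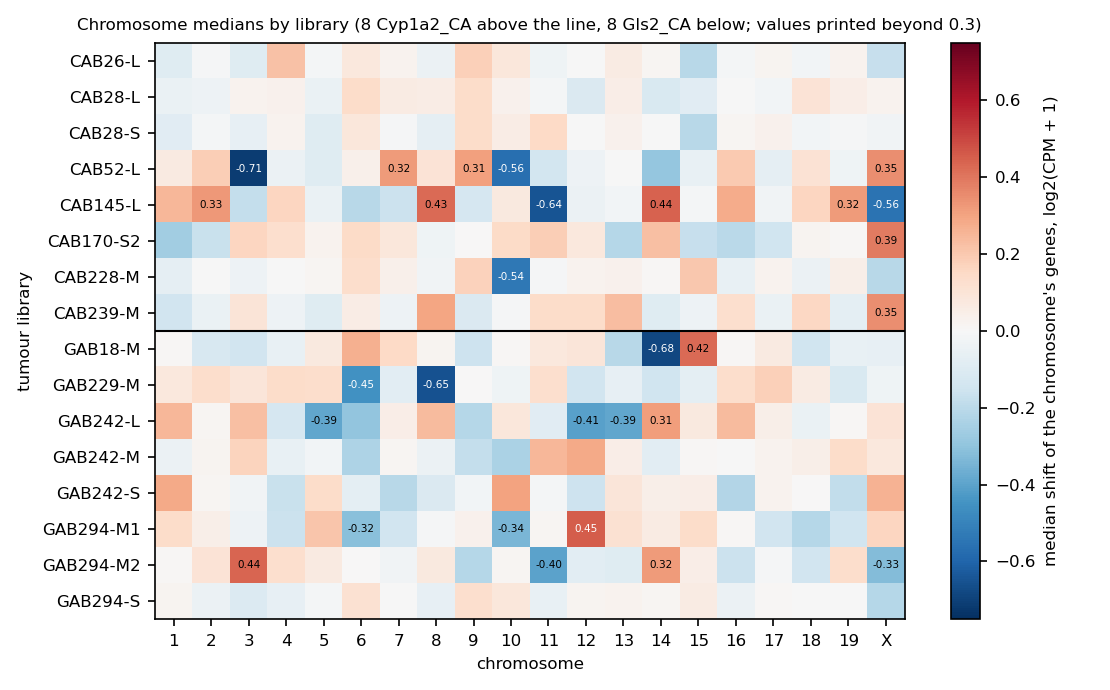
Median shift of the genes of each chromosome (columns) in each tumour library (rows), on the log2(CPM + 1) scale relative to the 16 libraries. Values are printed where they exceed 0.3 in size, from -0.71 (CAB52, chromosome 3) to 0.45 (GAB294-M1, chromosome 12).

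Tumours of the same animal did not share shifts beyond 0.3, though some smaller ones had the same direction. Chromosome 6 had -0.2975 in GAB242-L and -0.23 in GAB242-M, and chromosome 1 had 0.25 in GAB242-L and 0.28 in GAB242-S. GAB242-L had -0.41 on chromosome 12, -0.39 on chromosome 13 and -0.39 on chromosome 5, while no median of GAB242-M or GAB242-S went beyond 0.3. GAB294-M1 had 0.45 on chromosome 12, GAB294-M2 had 0.44 on chromosome 3 and -0.40 on chromosome 11, and GAB294-S had none beyond 0.3. Both tumours of CAB28 and that of CAB26 also had none. Copy number was not measured here, and the cause of the shifts was not tested.

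Medians by chromosome were also taken of the fold changes between origins. The median log2 fold change was 0.27 for 414 genes on chromosome 8, the chromosome of Ces1b and Hsd17b2, whose lowest animal in both cases was GAB229. It was 0.21 for 278 genes on chromosome 14, the chromosome of Pcdh17 and Sdr39u1, and -0.19 for 331 genes on chromosome 15. Single genes also ran against these medians. Chromosome 14 holds Dnah1 (log2 fold change -3.48), and chromosome 15 holds Cdh18 (3.65) and Fzd6 (2.97) beside Creld2 (-1.42). On chromosome 9, which holds both Cyp1a2 (57676937 to 57683703 on mm10, minus strand) and Ctnnb1 (120929216 to 120960507, plus strand), the median was 0.19 over 425 genes. Chromosome 9 also had 16 of the 73 genes whose animals did not overlap and were higher in Cyp1a2_CA, and 11.7% of such genes in either direction, with 5.65% of the tested genes that have a coordinate. No library had a chromosome 9 median beyond 0.3 except CAB52, at 0.31. Library medians on chromosome 9 ran from -0.13 to 0.31 in Cyp1a2_CA and from -0.21 to 0.12 in Gls2_CA.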

How the data were processed

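Bulk RNA of 26 mouse liver samples (20 tumours, 6 WT livers) was sequenced. The authors deposited 1 table of raw counts per gene symbol (35976 genes), on mm10 per the submitters' processing notes. How reads were aligned, counted and assigned to strands is not given in the sources used here, so genes that overlap or have near-identical copies are uncertain. Groups came from the genotype labels. Members, gene lists (40, covering 512 symbols, 508 matched) and tests were chosen with earlier results of these data known. Libraries with 1 animal number in the title were read as 1 animal. Their counts were summed and tested with edgeR 4.0.16 in R 4.3.3 (filterByExpr, TMM, robust quasi-likelihood fit), with Benjamini-Hochberg adjustment over the 16898 genes kept and a threshold of 0.05. Adjusted p-values are edgeR's unless another tool is named, and measure only the spread between animals. Printed CPM use column totals without TMM (factors 0.861 to 1.08). Lists are described by counts and medians. Genes named by rule are Ctnnb1, Arid2, Cyp1a2, Gls2, Glul, Axin2 and Ttn, the 12 smallest p-values each way among genes averaging 5 CPM or more in the higher group, and up to 4 per list by p. Chromosome medians and genes described for single animals were picked with their values in view. A gene that the rule picks entered the fits and counts of calls but is not reported here. Coordinates are from GENCODE M21 by symbol (14911 genes). The fit was tested on simulated data. Alternatives covered scaling, filters, replicate units, DESeq2 1.42.0, limma-voom (limma 3.58.1), WT in the fit, covariates and leaving out each animal.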

Additional observations from a re-analysis of the deposited data

Results flagged for a closer look

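In 66 groups of animal values (genes and library measures in both groups), 7 had an extreme animal far from its nearest neighbour for the range of its group, where chance gives about 1 in 20. CAB52 was low in Cyp1a2, at 130 CPM with the next Cyp1a2_CA animal at 219 CPM, and high in Ttn, at 78.4 CPM with the next at 13.7 CPM. Ttn is also the gene by which the members were selected. CAB170 was high in Axin2, at 428 CPM with the next at 220 CPM. CAB239 was high in Cdh18, at 17.7 CPM with the next at 6.04 CPM. In Gls2_CA, GAB18 was low in Ralgps2, at 396 CPM with the next at 632 CPM. GAB229 was high in Cybb, at 57.6 CPM with the next at 27.9 CPM, and in Styk1, at 37.6 CPM with the next at 3.11 CPM.

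The 4 tumour libraries left out of the comparison carried a Ttn signal far above the highest WT library (2.32 CPM): 22569 CPM in CAB44-L, 22240 CPM in CAB225-L, 31446 CPM in GAB235-S and 11293 CPM in CB6-L. CAB44-L, CAB225-L and GAB235-S were left out for this value, so their levels restate the selection and are not a result.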

How the results depend on the processing

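The count of genes past the threshold was 0 in 21 of 27 alternatives and above 0 in 6. It was 5 with every library as a replicate (all lower in Cyp1a2_CA, with Acp1, Ttc41, Ralgps2 and Dnah1 among them), 17 with WT libraries in the fit, 62 with DESeq2 (18 higher, 44 lower), 2 with limma-voom (Dnah1 among them) and 4 with quality weights. Some genes that passed in DESeq2 hardly differed in edgeR. Apobr had a log2 fold change of 0.10 (edgeR adjusted p = 0.991) and Exoc3l4 of -0.07 (edgeR adjusted p = 0.992). The reason was not tested. Leaving out each animal in turn gave 0 to 2, the 2 (Alg12 among them) without CAB228. Dnah1 passed in 5 of the 27 alternatives and Ttc41 in 4, and both kept their direction in all 27. Genes at an unadjusted p under 0.05 numbered 554 to 2193.

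Of 83 named genes, 8 changed sign in at least 1 alternative. Gls2 gave -0.15 with the first library of each animal, -0.13 with the title letter as a covariate and -0.050 without CAB26, with a range of -0.050 to 1.15 when each animal was left out. Fgfr1 gave 0.17 with the first library and 0.50 without GAB242 (range -1.47 to 0.50). With the high-Ttn libraries included, Axin2 gave -0.15, Ttn -0.41, Wif1 -0.56 and Zeb1 -0.078. Since Ttn selected the members, its change of sign here is not a separate result. Igf1r gave 0.11 without GAB229 (range -2.06 to 0.11) and Igf2 -0.048 without CAB52 and CAB145. The difference in mitochondrial share was -1.12 percentage points with every library as a replicate (exact permutation p = 0.0758) and -1.91 to -1.01 when each animal was left out, the latter without GAB229 (exact permutation p = 0.05). With every library as a replicate, the ribosomal protein difference was 9.96 CPM (exact permutation p = 0.0421). Counts of list members past the threshold were 0 in every alternative but DESeq2, which passed Cyp2a5 (pericentral), Igf2 (oncofetal), Cyp4a14 (fatty acid oxidation), Orm2 (acute phase) and Serpina1e (male-biased), 1 in each list. No paired analysis was possible because the titles give animal numbers that the 2 groups do not share.

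With 7 against 4 animals the median standard error was 0.29, which limits what passes an adjusted threshold. The causes of these changes were not tested.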

Other observations

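Further gene lists were measured, with 0 genes passing in edgeR in each and 1, Igf2 of the oncofetal list, in DESeq2. Hepatocyte identity genes (18 tested) had a median log2 fold change of 0.22. Alb, which encodes serum albumin, had 4907, 11230 and 25862 CPM (lowest, median and highest) in Cyp1a2_CA and 9792, 7038, 7473 and 5839 CPM in Gls2_CA animals, all below the 50914 CPM of the lowest WT liver. CAB52, the animal with the most Igf2 and Afp, also had the most Alb. Growth factor receptors and ligands (17 tested) had a median of 0.00. Igf1, the insulin-like growth factor of adult liver, had 499 to 1618 CPM against 1263 to 1909 CPM, and its lowest animals were CAB145 and CAB52, the 2 with the most Igf2. Fgf21, a metabolic hormone made by liver, had 10.05 to 34.4 CPM against 15.3 to 52.9 CPM, and every tumour animal lay above WT, which had at most 0.884 CPM. The Hippo list (9 tested, median -0.26) included Tead1, a DNA-binding partner of Yap1, with 12.2, 17.1 and 69.4 CPM against 78.8, 90.2, 54.4 and 43.2 CPM. WT had 10.07 to 14.5 CPM of Tead1, and the groups overlapped through CAB170 and CAB228. Glutathione S-transferases (18 tested) had a median of -0.14, oncofetal and progenitor genes (13) of 0.29, midlobular genes (5) of 0.40 and female-biased liver genes (11) of 0.34.

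Genes of the epithelial-mesenchymal list (11 tested) had a median of -0.21. Cdh2, or N-cadherin, which hepatocytes normally express, had 123, 145.5 and 156 CPM in Cyp1a2_CA and 90.2, 121, 102 and 117 CPM in Gls2_CA animals, with no overlap of animals or of libraries (log2 fold change 0.40, edgeR adjusted p = 0.752). Over all genes, 0.432% were higher in Cyp1a2_CA without overlap of animals, and 13 of 16898 without overlap of libraries. SWI/SNF subunits (18 tested) had a median of 0.04 and collagens and matrix genes (18) of 0.02. Of 19 sarcomere genes 7 were tested, with a median of -0.21. Neb, which encodes the giant thin-filament protein nebulin, had 155, 604 and 1277 CPM in Cyp1a2_CA and 1506, 977, 814 and 1001 CPM in Gls2_CA animals, all above the 104 to 151 CPM of WT. Its lowest value was in CAB52, the member with the most Ttn.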
